A study of Danio rerio with 25 samples.

Results

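Matrix metalloproteinases (MMPs), their tissue inhibitors (TIMPs), the ADAMTS proteases, the ADAMTS-like proteins and the lysyl oxidases were followed by RNAseq in zebrafish larvae that model Duchenne muscular dystrophy. Members were all genes whose symbol belongs to one of these families and that had at least 10 counts summed over all libraries. All 62 genes with such a symbol passed this filter, out of 25832 genes tested and 27659 genes with at least 1 count. They comprised 24 MMPs, 5 TIMPs, 19 ADAMTS proteases, 4 ADAMTS-like proteins and 10 lysyl oxidases. Symbols in capitals are those of the reference table for the zebrafish genes. Where several genes carry the same symbol, they are told apart here by their Ensembl identifier.

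Whole larvae were lysed in pairs, 2 for each library of polyA RNA, at 7 days post-fertilization (dpf). WT sibling controls (n = 4) and WT siblings given endurance neuromuscular electrical stimulation (eNMES, n = 3) were compared with *dmd* mutant controls (n = 8) and *dmd* mutants given eNMES (n = 9). Treated larvae had 3 sessions of eNMES, at 2, 3 and 4 dpf, and RNA was taken 3 days after the last. Mutants carried the *sapje* ta222a allele of *dmd*, the gene for dystrophin. Embryos came from natural spawns, and the spawn of each library is not stated. The study sorted larvae into mutants and WT siblings by muscle birefringence, so the siblings are larvae without visible disease, and it grouped larvae by severity and by change in birefringence before extraction. Of the treated mutants, replicate 1 is labelled but not analysed here.

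MMPs cut collagens, laminins and other matrix proteins, and most are made as inactive precursors. TIMPs bind the active enzymes and block them. ADAMTS proteases are secreted enzymes that trim procollagens or cut proteoglycans such as aggrecan and versican, ADAMTS-like proteins share their matrix-binding domains without the protease, and lysyl oxidases cross-link collagen and elastin. In dystrophic muscle the matrix is known to be rebuilt around damaged fibers, and gelatinases are known to be made there by inflammatory cells and fibroblasts.

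Total counts per library ran from 7957160 to 22808348. Transcripts of *dmd* itself (ENSDARG00000008487) lay between 2586 and 5391 normalized counts in untreated and between 3508 and 4595 in treated WT siblings. The *dmd* mutants had 1054 to 1323 without and 1007 to 1434 with eNMES. No mutant library overlapped a WT sibling library. A normalized count is the count after TMM normalization, brought to the average depth of all libraries. Libraries were also divided into 2 sets by the sign of the first principal component of 30 circadian clock genes, which held 57.91% of their variance. All 4 WT sibling controls were in the positive set and all 3 WT siblings with eNMES in the negative set. The negative set also held replicates 1 to 5 of the mutant controls and 2 to 6 of the treated mutants, and the positive set the other mutant libraries. In WT siblings the treatment and the clock set therefore cannot be told apart. Scores of the positive set ran from 1.76 to 2.48, and the negative set was not uniform. Its treated WT siblings had -3.18 to -2.63. Mutant control replicates 1 to 3 and treated mutant replicates 2 and 3 had -2.19 to -1.72. Control replicates 4 and 5 and treated replicates 4 to 6 had -1.12 to -0.694.

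Levels in TPM, which take gene length into account, placed 5 members at a mean above 40 over all libraries. *TIMP2* (ENSDARG00000061226) had a mean of 46.4 TPM, *MMP2* 45.1, *MMP9* 42.7, *TIMP4* (ENSDARG00000100795) 42.4 and *mmp30* 41.4. MMP2 and MMP9 are the gelatinases, which cut denatured collagen and the type IV collagen of basement membranes. The order is that of means over all libraries and did not hold in each group, since *MMP9* had a group mean of 75.6 TPM in untreated and 17.7 in treated WT siblings, and 39.0 in untreated and 39.8 in treated *dmd* mutants. These overall means lie close together, while the spread between libraries did not, from 1670 to 2092 normalized counts for *TIMP2* and from 406 to 5349 for *MMP9*.

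Lower levels were found for most of the other members. Of the membrane-type MMPs, *MMP14* (ENSDARG00000008388) was the most abundant with 28.2 TPM and *mmp25a* the least with 0.055. MMP14 sits at the cell surface and activates the precursor of MMP2 in mammals, together with TIMP2. In the other secreted MMPs the range ran from *mmp30* down to *MMP19* with 0.0579 TPM, and *mmp13a*, the gene of a collagenase, had 13.5. The TIMPs went from *TIMP2* down to a *TIMP4* copy (ENSDARG00000102617) with 0.785 TPM.

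ADAMTS genes were low throughout. *adamts2b*, one of the procollagen N-proteinases that trim the amino end of fibrillar procollagens, had 7.34 TPM and *ADAMTS3* of the same group 1.92. Among the proteoglycanases, *ADAMTS1* had the highest overall mean with 5.36 TPM and an *ADAMTS8* copy (ENSDARG00000058252) the lowest with 1.34. Only the WT sibling controls put *ADAMTS1* first, with a group mean of 12.1 TPM, while in the other groups (1.89 to 4.59) it was below *ADAMTS15* (ENSDARG00000033544, 4.42 to 4.99). The other ADAMTS proteases ranged from *adamts13*, whose human counterpart cuts von Willebrand factor, with 3.55 TPM to *ADAMTS7* with 0.249. ADAMTS-like genes lay between 1.104 TPM for *ADAMTSL2* and 4.43 for *adamtsl7*.

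Lysyl oxidases were led by *LOXL3* (ENSDARG00000039563) with 20.7 TPM and *LOXL1* with 20.1, while *LOX* itself had 3.39. The lowest was *loxl5a* with 0.0946 TPM. Only 25 counts of *MMP19*, 27 of *mmp25a* and 35 of *loxl5a* were found in all libraries together, so no difference in these 3 genes could be detected at this depth. Reads that match several genes were shared out by estimation, so where genes with a common symbol, such as those named *MMP14*, *MMP15*, *TIMP4* or *LOXL3*, are alike in sequence, the split between them is uncertain. Their likeness was not measured here.

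**Figure D1:**
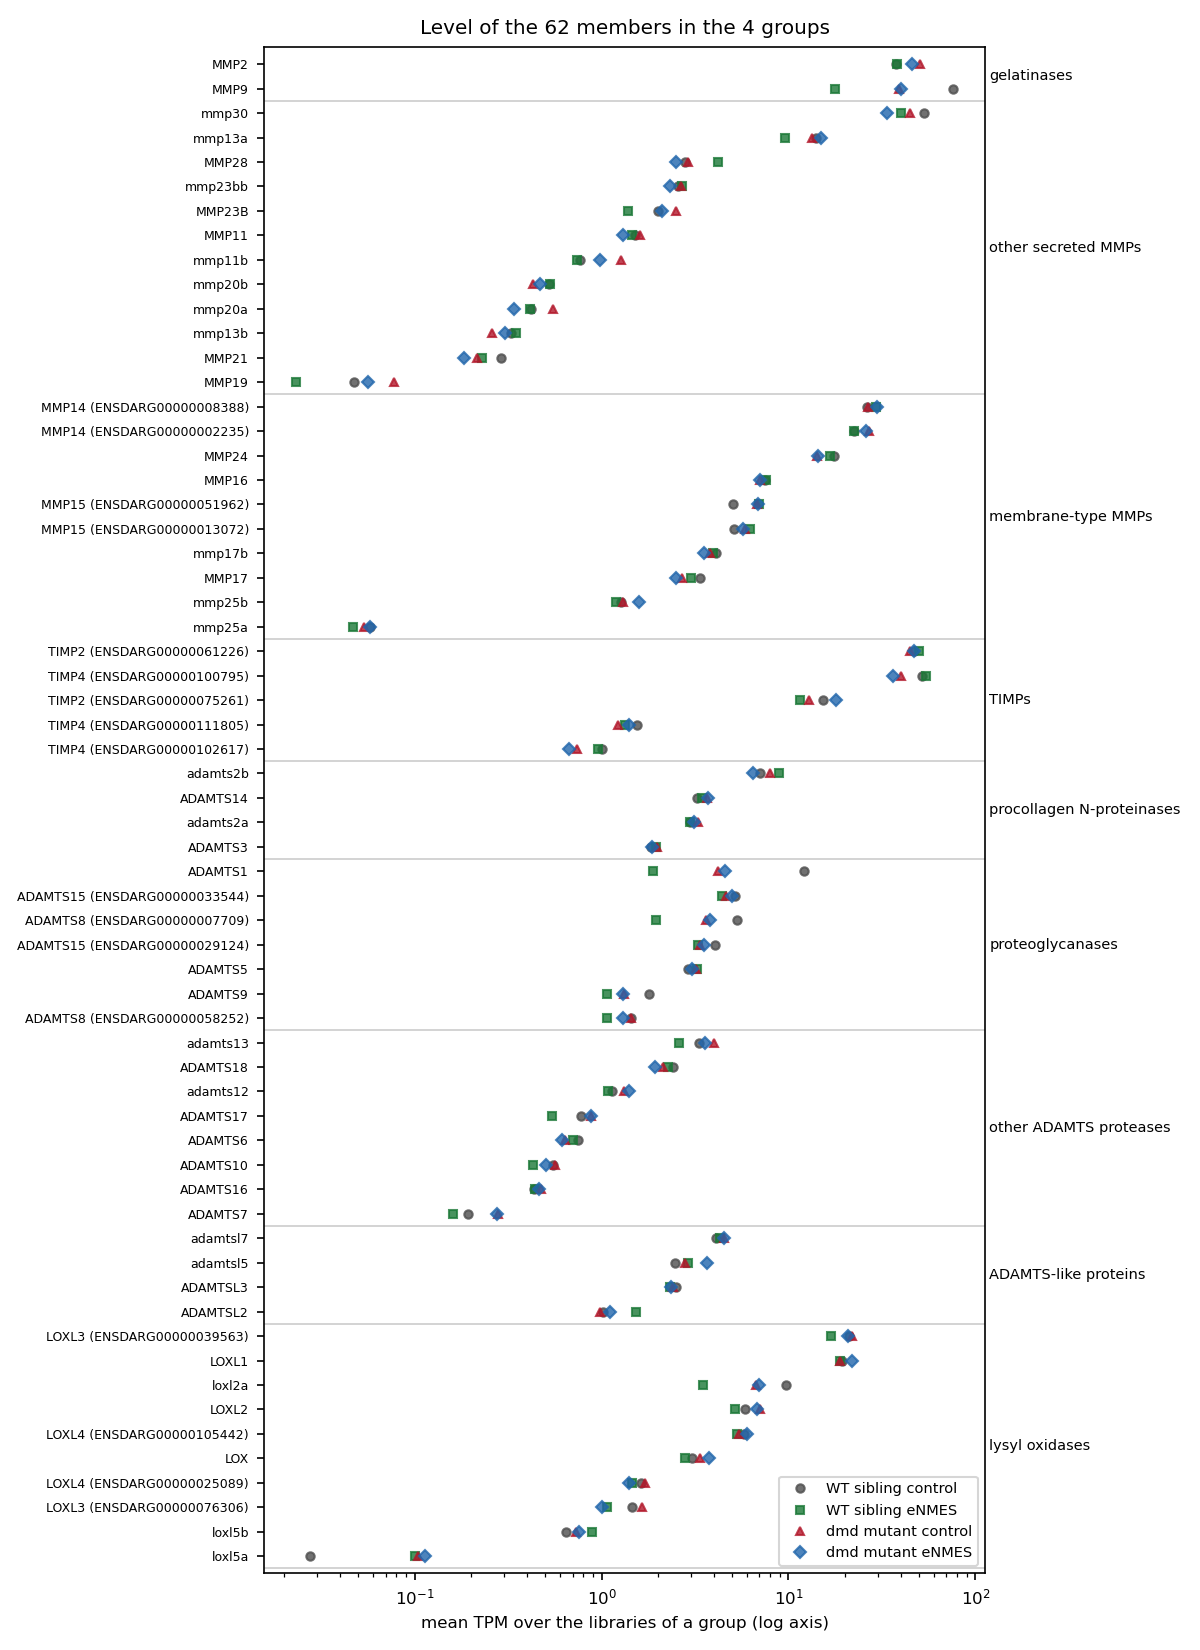
Mean TPM of each of the 62 members over the libraries of a group, on a log axis, sorted by role and level; circles are WT sibling controls, squares WT siblings with eNMES, triangles *dmd* mutant controls and diamonds *dmd* mutants with eNMES. The groups lie close together for most members, and *MMP9*, *ADAMTS1*, *ADAMTS8* (ENSDARG00000007709) and *loxl2a* show the WT siblings with eNMES to the left of the other groups.

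Summed over a family, the 24 MMPs had a median of 258 TPM in untreated and 214 in treated WT siblings, and of 248 in untreated and 238 in treated *dmd* mutants. All 3 WT siblings with eNMES (207 to 223) were below all 4 of their controls (253 to 367). *MMP9* made up 16.6% to 40.5% of this sum in WT sibling controls and 5.45% to 12.8% in WT siblings with eNMES. Without *MMP9* the sums overlapped, from 192 to 218 TPM in the controls and from 194 to 203 with eNMES.

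The TIMP sum had a median of 115 TPM in untreated and 117 in treated WT siblings, and of 103 in untreated and 105 in treated *dmd* mutants. The 2 mutant groups spread from 78.6 to 123 TPM and the 2 WT groups from 114 to 121. The ratio of the MMP sum to the TIMP sum had medians of 2.21, 1.77, 2.52 and 2.45 in the same order. These sums and ratios are descriptions, since no test of them was planned. For lysyl oxidases the sum ran from 60.7 to 71.9 TPM in WT sibling controls and from 52.8 to 61.6 with eNMES, and for ADAMTS proteases from 51.3 to 69.8 and from 40.9 to 44.2.

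**Figure D2:**
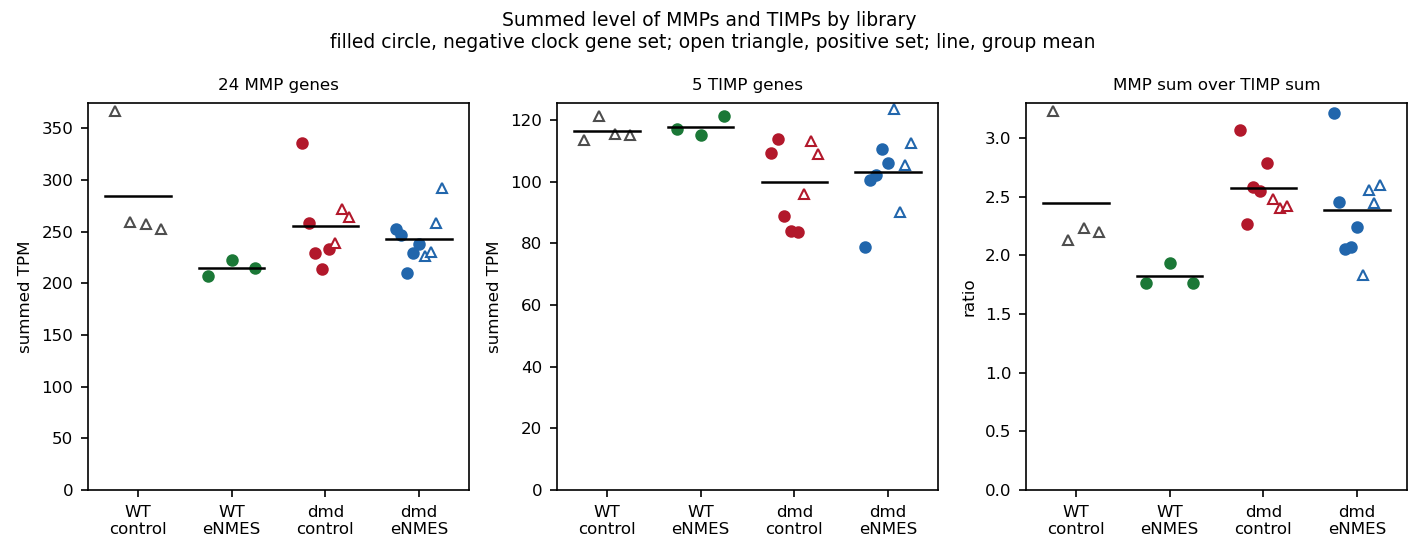
Summed TPM of the 24 MMP genes (left), of the 5 TIMP genes (middle) and the ratio of both sums (right), 1 point per library by group, with the group mean as a line; filled circles are libraries of the negative clock set and open triangles those of the positive set. The MMP sums of the 3 WT siblings with eNMES, 207 to 223 TPM, lie below those of the 4 WT sibling controls.

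To ask how the dystrophic larvae differed without treatment, *dmd* mutant controls were compared with WT sibling controls. A gene was called when edgeR's adjusted p was under 0.1 and the absolute log2 fold change over 0.6, which are the thresholds of the study. All 4 WT sibling controls were in the positive clock set and 5 of the mutant controls in the negative set. Genotype and set are therefore partly mixed in this comparison. *ADAMTS1* fell, and it was the only one of the 62 members called, against 3.12% of all genes tested. *MMP2* and 2 membrane-type MMPs were slightly higher and *MMP24* slightly lower, with adjusted p under 0.1 but a change below the minimum. The median log2 fold change of the members was 0.07 and that of all genes 0.01, with 36 members positive and 26 negative. At an unadjusted p under 0.05 there were 12 members, 19.4%, against 21.8% of all genes.

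*MMP2* (ENSDARG00000017676) had 1385, 1575, 1498 and 1538 normalized counts in the WT sibling controls. In *dmd* mutant controls the lowest, median and highest values were 1882, 2071 and 2297. Every mutant control was above every WT sibling control, with a log2 fold change of 0.46 (SE 0.0652, adjusted p = 7.6e-05 with edgeR). An exact permutation test, two-sided, gave p = 0.00202, the smallest that these group sizes allow. Members were chosen for this test, here and below, by a call or one of the 3 smallest p in the same comparison. The test is therefore no independent support. RNA came from whole larvae, so more cells that express a gene and more RNA per cell cannot be told apart here or in any other comparison.

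Markers of tenocytes and fibroblasts moved with *MMP2*. Their 12 genes summed to between 437.5 and 525.7 TPM in untreated and 429 and 469.4 in treated WT siblings. In *dmd* mutants the sums lay between 657.2 and 768.7 without and between 507.8 and 715.1 with eNMES. In the comparison of controls 11 of these 12 genes were positive, 9 had an adjusted p under 0.1 and 1 was called. Each of them had counts over all libraries together. Their part in the *MMP2* result was not tested.

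*MMP15* (ENSDARG00000051962), a membrane-type MMP, had 168, 205, 194 and 196 normalized counts in the WT sibling controls. The *dmd* mutant controls ran from 213 over a median of 269 to 294. The groups did not overlap, and the log2 fold change was 0.46 (SE 0.0920, adjusted p = 0.00321 with edgeR). By an exact permutation test, two-sided, p was 0.00202. The 3 WT siblings with eNMES had 229, 278 and 262, within the range of the mutant controls, so the untreated WT siblings were the low group. The treated groups overlapped for this gene.

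*MMP14* (ENSDARG00000002235) had 1235, 1058, 1015 and 930.4 normalized counts in the WT sibling controls, and 1080, 1293 and 1447 as lowest, median and highest value in the mutant controls. Replicate 1 of the WT siblings lay within the mutant range, so the groups overlapped. Its log2 fold change was 0.28 (SE 0.0751, adjusted p = 0.0245 with edgeR; exact permutation p = 0.00404, two-sided). The other copy of *MMP14* had no adjusted p under 0.1.

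*MMP24*, a membrane-type MMP known best from neurons in mammals, had 1029, 997, 902 and 911 normalized counts in WT sibling controls. All 8 mutant controls, from 633 to 889, were below them. The log2 fold change was -0.26 (SE 0.0724, adjusted p = 0.03 with edgeR). Groups that did not overlap were found for 3 members in this comparison, *MMP2*, *MMP15* (ENSDARG00000051962) and *MMP24*, which is 4.84% of the members against 4.98% of all genes.

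*ADAMTS1* (ENSDARG00000103519), which cuts aggrecan and versican, had 750.3, 216, 492 and 261 normalized counts in the WT sibling controls. In the *dmd* mutant controls the values were 56.4 at the lowest, 135 at the median and 266 at the highest. WT replicates 1 and 3 were above all mutant libraries, and WT replicates 2 and 4 were within their range. It fell by 1.50 on the log2 scale (SE 0.414, adjusted p = 0.0351 with edgeR; exact permutation p = 0.0141, two-sided). Without WT replicate 1 the log2 fold change was -1.09 and the adjusted p 0.182, and without WT replicate 3 the adjusted p was 0.101, so the call rests on these libraries. With only the 3 mutant controls of the positive clock set (108, 123 and 147), all below the 4 WT sibling controls, the log2 fold change was -1.77 and the adjusted p 0.201.

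Lysyl oxidases and inhibitors held no call in this comparison. *LOXL2* (ENSDARG00000044074), whose product cross-links collagen IV, had a log2 fold change of 0.29 (SE 0.108) and an adjusted p of 0.109, and 8 of the 10 lysyl oxidases were positive. All 5 TIMPs had a negative log2 fold change, from -0.40 to -0.04, with a median of -0.31, but none had p under 0.05. The 4 procollagen N-proteinases were all positive, from 0.14 to 0.32, without an adjusted p under 0.1. *MMP9* had a log2 fold change of -0.91 (SE 0.477, adjusted p = 0.276 with edgeR). Its mutant controls included 1 very high library, replicate 1 with 4510 normalized counts, and without it *MMP9* was called, with a log2 fold change of -1.42 and an adjusted p of 0.0316. Without mutant control replicate 6 *ADAMTS8* (ENSDARG00000007709) was called, with -0.76 and 0.0983. That library had the highest value of the mutant controls, 266 normalized counts, and is of the positive clock set, as are all WT sibling controls. Over the mutants this gene had a median of 89.3 in the negative and 171 in the positive set. The part of the set in this call was not tested.

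**Figure D3:**
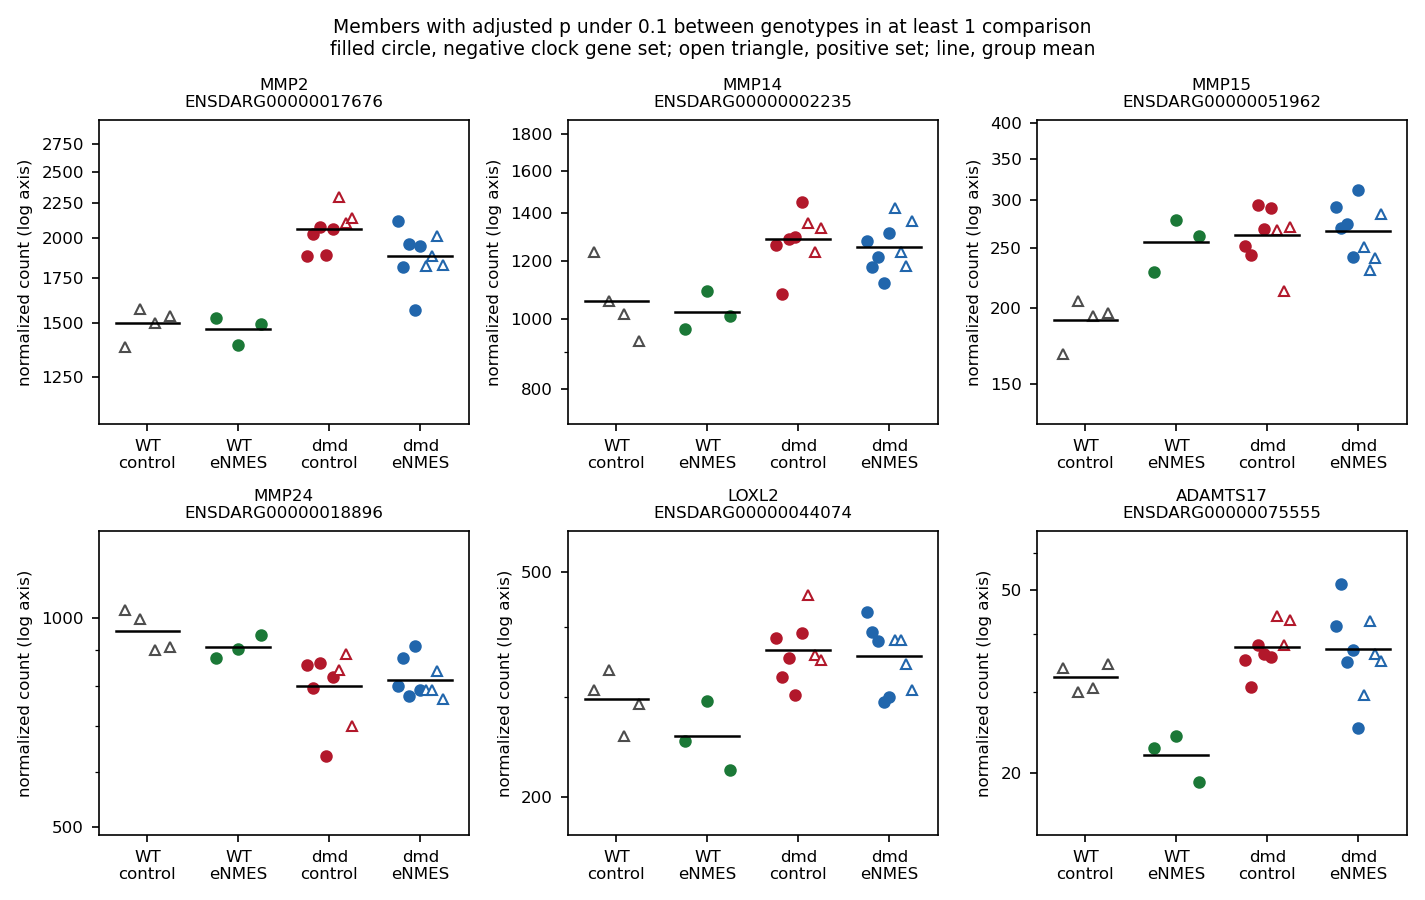
Normalized counts per library, on log axes, of 6 members with an adjusted p under 0.1 between the genotypes in at least 1 comparison; points are libraries, filled circles the negative and open triangles the positive clock set, and lines group means. *MMP2* in the 8 *dmd* mutant controls (1882 to 2297) is above all 7 WT sibling libraries, and *ADAMTS17* is lowest in the 3 WT siblings with eNMES.

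The effect of eNMES on healthy larvae was examined in the WT siblings. *ADAMTS1*, *loxl2a*, *ADAMTS8* (ENSDARG00000007709) and *MMP9* fell, which is 4 of the 62 members, and no member rose, against 2.95% of all genes called. Members leaned to lower values, with 44 negative, 18 positive and a median log2 fold change of -0.12, while the median of all genes was 0.01. In total 12 members had groups that did not overlap, 9 lower and 3 higher, which is 19.4% against 20.3% of all genes, so non-overlap among the members was about as frequent as among genes in general. The 3 higher were *MMP15* (ENSDARG00000051962), *MMP15* (ENSDARG00000013072) and *loxl5a*. Values of *loxl5a* were near the floor, at most 0.91 normalized counts in controls and 1.91 with eNMES.

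*ADAMTS1* had 65.2, 82.3 and 48.8 normalized counts in the 3 WT siblings with eNMES, all below the 216 of the lowest control given above. It fell by 2.72 on the log2 scale (SE 0.608, adjusted p = 0.0205 with edgeR). An exact permutation test, two-sided, gave p = 0.0286, the smallest possible with 4 against 3 libraries. It needs groups that do not overlap, which 20.3% of all genes had in this comparison.

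*MMP9* (ENSDARG00000042816) had 5349, 1664, 2422 and 1509 normalized counts in the WT sibling controls and 447, 1029 and 406 with eNMES. Control replicate 1 was far above the others, and it also had the highest *ADAMTS1*. The groups did not overlap, and *MMP9* fell by 2.13 on the log2 scale (SE 0.662, adjusted p = 0.0827 with edgeR; exact permutation p = 0.0286, two-sided). With only the 2 WT groups in the fit the adjusted p was 0.145, and without control replicate 1 the log2 fold change was -1.59 and the adjusted p 0.247.

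*loxl2a* (ENSDARG00000044010), a lysyl oxidase gene, had 312, 274, 258 and 229 normalized counts in the controls and 91.7, 104 and 87.0 with eNMES. The spread within each group was small beside the gap between them. It fell by 1.51 on the log2 scale (SE 0.439, adjusted p = 0.064 with edgeR; exact permutation p = 0.0286, two-sided).

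*ADAMTS8* (ENSDARG00000007709), a protease of the proteoglycanase group, had 213, 176, 184 and 153 normalized counts in the controls and 69.0, 85.3 and 42.1 with eNMES. The groups stood apart here as well. It fell by 1.47 on the log2 scale (SE 0.432, adjusted p = 0.0651 with edgeR; exact permutation p = 0.0286, two-sided).

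*ADAMTS9*, another proteoglycanase, had 298, 229, 296 and 211 normalized counts in the controls and 151, 144 and 168 with eNMES. Its groups did not overlap, but the log2 fold change of -0.74 (SE 0.262) had an adjusted p of 0.12 and was not called. In the proteoglycanase group 6 of 7 genes were negative, 5 had p under 0.05 and 2 were called, and p was under 0.05 for 12 of the 62 members, 19.4%, and for 17.5% of all genes. All 8 of the other ADAMTS proteases were negative, from -0.56 to -0.02, with no call.

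*MMP15* (ENSDARG00000051962) went the other way, with 229, 278 and 262 normalized counts against at most 205 in the untreated larvae. A log2 fold change of 0.43 (SE 0.112, adjusted p = 0.0352 with edgeR; exact permutation p = 0.0286, two-sided) was below the minimum for a call. Among the TIMPs, *TIMP2* (ENSDARG00000061226) stayed between 1670 and 2092 normalized counts in all 24 libraries. The other *TIMP2* copy (ENSDARG00000075261) varied more, from 386 to 587 in WT sibling controls and from 228 to 550 with eNMES. *TIMP4* (ENSDARG00000100795) ran from 462 to 515 in these controls and from 463 to 524 with eNMES. No TIMP had p under 0.05 in this comparison.

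Calls in the WT siblings depended on single libraries. Leaving out WT eNMES replicate 3 left 0 members called, and leaving out control replicate 1, control replicate 3, eNMES replicate 1 or eNMES replicate 2 left 1, *ADAMTS1*. The log2 fold changes kept their sign, from -1.58 to -1.44 for *loxl2a* and from -2.68 to -1.59 for *MMP9* over all libraries left out in turn.

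Some markers of other cell types differed in this comparison too, where 17.5% of all genes had p under 0.05. Markers of the epidermis, 8 genes, summed to 8319 to 9609 TPM in WT sibling controls and to 6884 to 7516 with eNMES, and all 8 were negative, 6 of them with p under 0.05 and none called. Markers of macrophages and neutrophils, 17 genes, summed to 173 to 204.4 TPM in controls and to 165.8 to 207.2 with eNMES. Every marker of both lists had counts over all libraries together, and 16 of the 17 macrophage and neutrophil genes passed the count filter. Of 12 fast muscle markers 11 were negative, 4 of them with p under 0.05 and none called. Their sums were 41340 to 46170 TPM in controls and 38770 to 41660 with eNMES. Of 12 tenocyte and fibroblast markers 9 were negative, and none was called. The epidermal difference moved with the calls, while the leukocyte and fast muscle sums overlapped. The part of these markers in the calls was not tested.

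**Figure D4:**
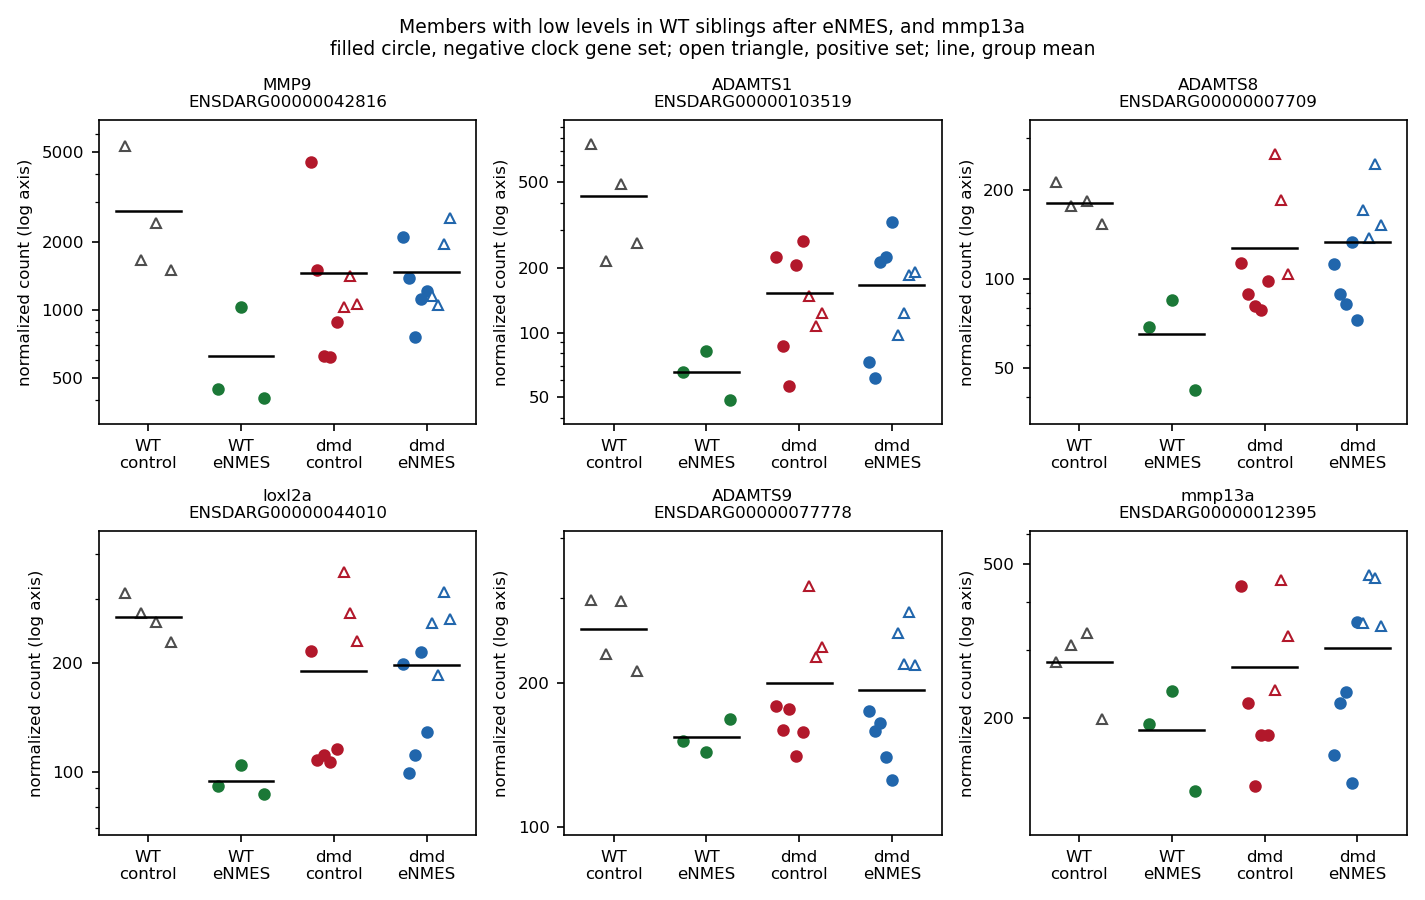
Normalized counts per library, on log axes, of 5 members that were low in the WT siblings after eNMES and of *mmp13a*; points are libraries, filled circles the negative and open triangles the positive clock set, and lines group means. For *loxl2a*, the 3 WT siblings with eNMES (87.0 to 104) lie with most filled circles of the *dmd* mutants, and most open triangles lie higher, with overlap between the sets in the treated mutants.

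The clock sets could be compared only inside the *dmd* mutants, where 10 libraries were in the negative and 7 in the positive set, with both treatments in each. This is a description without a test. *loxl2a* had a median of 114 normalized counts in the negative and 264 in the positive set, *ADAMTS8* (ENSDARG00000007709) 89.3 and 171, and *mmp13a* 200.0 and 352. *ADAMTS9* ran from 125 to 179 in the negative and from 218 to 318 in the positive set. It was the only member whose sets did not overlap, 1.61% of the members against 1.77% of all genes.

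*ADAMTS1* had the opposite order of medians in the mutants, with 209 normalized counts in the negative and 124 in the positive set. Its negative set was split. Mutant control replicates 2 and 3 and treated replicates 2 and 3 had 56.4 to 86.8, all below the positive set (97.2 to 190.5). Control replicates 1, 4 and 5 and treated replicates 4 to 6 had 205 to 326, all above it. The order of the medians therefore did not hold throughout the negative set. *MMP9* overlapped widely, from 621 to 4510 in the negative and from 1031 to 2548 in the positive set. When the set entered the fit as a term, the log2 fold change of *loxl2a* in WT siblings was -0.57 (adjusted p = 0.557 with edgeR) and that of *ADAMTS8* (ENSDARG00000007709) -0.55 (adjusted p = 0.573). In the same fit *MMP9* had -2.14 (adjusted p = 0.298) and *ADAMTS1* -3.03 (adjusted p = 0.0908), the only call left. These estimates take the difference between sets from the *dmd* mutants alone, since set and eNMES coincide in WT siblings. For *ADAMTS1* that difference rests on the split negative set given above. The remaining call therefore cannot show whether its fall in WT siblings is separate from the clock set.

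Whether eNMES changed these genes in dystrophic larvae was asked in the *dmd* mutants, the comparison with the most libraries. No member was called by edgeR, against 0.128% of all genes. At an unadjusted p under 0.05 there were 10 members, 16.1%, against 10.3% of all genes. DESeq2 called 1 member, a copy of *LOXL3*. The share of all genes that DESeq2 called is not given here, so this call shows no shift particular to the members. No member had groups that did not overlap, against 0.0387% of all genes. The median log2 fold change was -0.03 for members and 0.00 for all genes.

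*mmp30* had the smallest p. Its lowest, median and highest values were 1192, 1593 and 2037 normalized counts in the mutant controls and 947.5, 1106 and 1502 with eNMES. The upper values with eNMES overlapped the lower controls, with a log2 fold change of -0.41 (SE 0.107, adjusted p = 0.14 with edgeR; exact permutation p = 0.00465 unadjusted, two-sided).

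*adamtsl5*, an ADAMTS-like gene, had 120.0, 156 and 180.3 normalized counts in the mutant controls and 164, 193 and 274 with eNMES. Its log2 fold change was 0.40 (SE 0.110, adjusted p = 0.148 with edgeR; exact permutation p = 0.0028 unadjusted, two-sided), with overlap between the groups.

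*LOXL3* (ENSDARG00000076306), the weaker of both copies of this lysyl oxidase, had 38.2, 45.7 and 71.8 normalized counts in the mutant controls and 13.3, 34.9 and 41.7 with eNMES. Most treated libraries lay under the lowest control. Its log2 fold change was -0.69 (SE 0.206, adjusted p = 0.196 with edgeR and 0.0923 with DESeq2; exact permutation p = 0.000658 unadjusted, two-sided).

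*MMP2* differed little, from 1882 to 2297 normalized counts in the mutant controls and from 1570 to 2119 with eNMES. Its log2 fold change was -0.13 (SE 0.0507, adjusted p = 0.342). Of the genes that fell in WT siblings, *MMP9* ran from 621 to 4510 in the mutant controls and from 760.2 to 2548 with eNMES, with a log2 fold change of 0.02. Among the 12 other secreted MMPs 9 were negative, with a median of -0.24 and 2 at p under 0.05.

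Some marker lists of other cell types leaned to one side with eNMES in the mutants. No marker was called by edgeR or had an adjusted p under 0.1, and 10.3% of all genes had p under 0.05. All 12 genes of tenocytes and fibroblasts were negative, with a median log2 fold change of -0.14 and 4 at p under 0.05. Of 16 cartilage and bone markers 13 were negative, with a median of -0.21 and 5 at p under 0.05. Of 16 markers of macrophages and neutrophils 13 were positive, with a median of 0.20 and 6 at p under 0.05. Of 8 epidermis markers 6 were negative, with a median of -0.19 and 3 at p under 0.05. Of 12 fast muscle markers 8 were positive, with a median of 0.02 and 3 at p under 0.05. Osteoclast, endothelial and exocrine pancreas markers held none at p under 0.05. The part of these markers in the values of the members was not tested.

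Treated larvae of both genotypes were compared next. *ADAMTS17* and *ADAMTS7* were higher in the *dmd* mutants, 2 of 62 members against 3.94% of all genes called, and no member was lower. All 3 WT siblings with eNMES were in the negative clock set, but 4 of the treated mutants in the positive set. Genotype and set are therefore partly mixed here, and 12 of 30 clock genes were called higher and 1 lower. In treated mutants *ADAMTS17* ran from 25.1 to 51.5 normalized counts in the negative and from 29.6 to 42.8 in the positive set. *ADAMTS7* ran from 17.1 to 30.0 and from 12.7 to 21.4. An adjusted p under 0.1 was found for 9 members, and 39 of 62 were positive, with a median log2 fold change of 0.16 against 0.00 for all genes. The share of all genes with such an adjusted p is not given here. At an unadjusted p under 0.05 there were 20 members, 32.3%, against 22.9% of all genes. Groups did not overlap for 6 members, all higher in mutants, which is 9.68% against 8.53% of all genes.

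*ADAMTS17*, a gene whose loss in humans causes short stature and eye disease, had 22.7, 24.1 and 19.1 normalized counts in the WT siblings with eNMES. In the treated mutants the lowest, median and highest values were 25.1, 36.3 and 51.5. Its log2 fold change was 0.75 (SE 0.184, adjusted p = 0.013 with edgeR; exact permutation p = 0.00455, two-sided, the smallest possible). The untreated WT siblings had 30.1 to 34.6, so the treated WT siblings were the low group.

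*ADAMTS7*, which cuts cartilage oligomeric matrix protein, had 11.3, 10.0 and 10.5 normalized counts in the WT siblings with eNMES and 12.7, 19.6 and 30.0 in the treated mutants. The log2 fold change was 0.88 (SE 0.298, adjusted p = 0.0707 with edgeR; exact permutation p = 0.00455, two-sided). Its call was lost without any 1 of the 3 WT eNMES libraries, with an adjusted p of 0.154 to 0.204, or without replicate 2 of the treated mutants, with 0.106. Without WT eNMES replicate 3 *ADAMTS17* had an adjusted p of 0.101.

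*MMP2* was higher in treated mutants, from 1570 to 2119 normalized counts against 1527, 1391 and 1495, a log2 fold change of 0.36 (SE 0.0712, adjusted p = 0.00281 with edgeR). *LOXL2* had 251, 296 and 223 normalized counts in treated WT siblings and 295, 377 and 425 as lowest, median and highest value in treated mutants. Only the lowest mutant library overlapped them, and the log2 fold change was 0.47 (SE 0.120, adjusted p = 0.017 with edgeR; exact permutation p = 0.00909, two-sided). Both stayed below the minimum change for a call. *MMP14* (ENSDARG00000002235) had a log2 fold change of 0.30 and *adamts13* one of 0.51, with adjusted p of 0.0256 and 0.0387.

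A test of the difference between the 2 eNMES changes, in mutants minus WT siblings, called 1 member, *ADAMTS1*, against 1.85% of all genes. Its interaction was 2.85 on the log2 scale (SE 0.698, adjusted p = 0.0527 with edgeR). In the *dmd* mutants *ADAMTS1* ran from 56.4 to 266 normalized counts without and from 61.3 to 326 with eNMES, while in WT siblings it fell. The call was lost without control replicate 1 or 3 or without any of the 3 eNMES libraries of the WT siblings, with adjusted p from 0.105 to 0.183, and with the clock set as a term, with 0.233, where the interaction was 3.19.

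*MMP9*, *loxl2a* and *ADAMTS8* (ENSDARG00000007709) had interactions of 2.15 (SE 0.758), 1.56 (SE 0.511) and 1.54 (SE 0.503), with adjusted p of 0.174, 0.139 and 0.138, and *MMP15* (ENSDARG00000051962) one of -0.40 with 0.136. By edgeR a different response of these 4 genes in the 2 genotypes is therefore not shown. DESeq2, for which the share of all genes called is not given here, called the interactions of *ADAMTS8* (ENSDARG00000007709), *loxl2a* and *MMP9*. Their adjusted p with DESeq2 were 0.0252, 0.0435 and 0.0541, and the interaction of *ADAMTS1* was called too. Single mutant libraries decided some of these values. Without mutant control replicate 1 *MMP9* was called, with 2.66 (adjusted p = 0.0374), and without replicate 6 *ADAMTS8* (ENSDARG00000007709) and *loxl2a* were, with 1.78 and 1.75 (adjusted p = 0.0304 and 0.0506). *ADAMTS8* was also called without mutant control replicate 7 (adjusted p = 0.0971) and *loxl2a* without replicate 3 of the treated mutants (adjusted p = 0.0884). Mutant control replicates 6 and 7 are of the positive and treated replicate 3 of the negative clock set. Both genes had the higher median in the positive set of the mutants. Leaving these libraries out therefore also changes the balance of the sets, whose part was not tested. The same WT sibling controls enter the comparison of the controls, the eNMES comparison in WT siblings and this one, so the changes of *ADAMTS1* in the 3 are not independent.

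**Figure D5:**
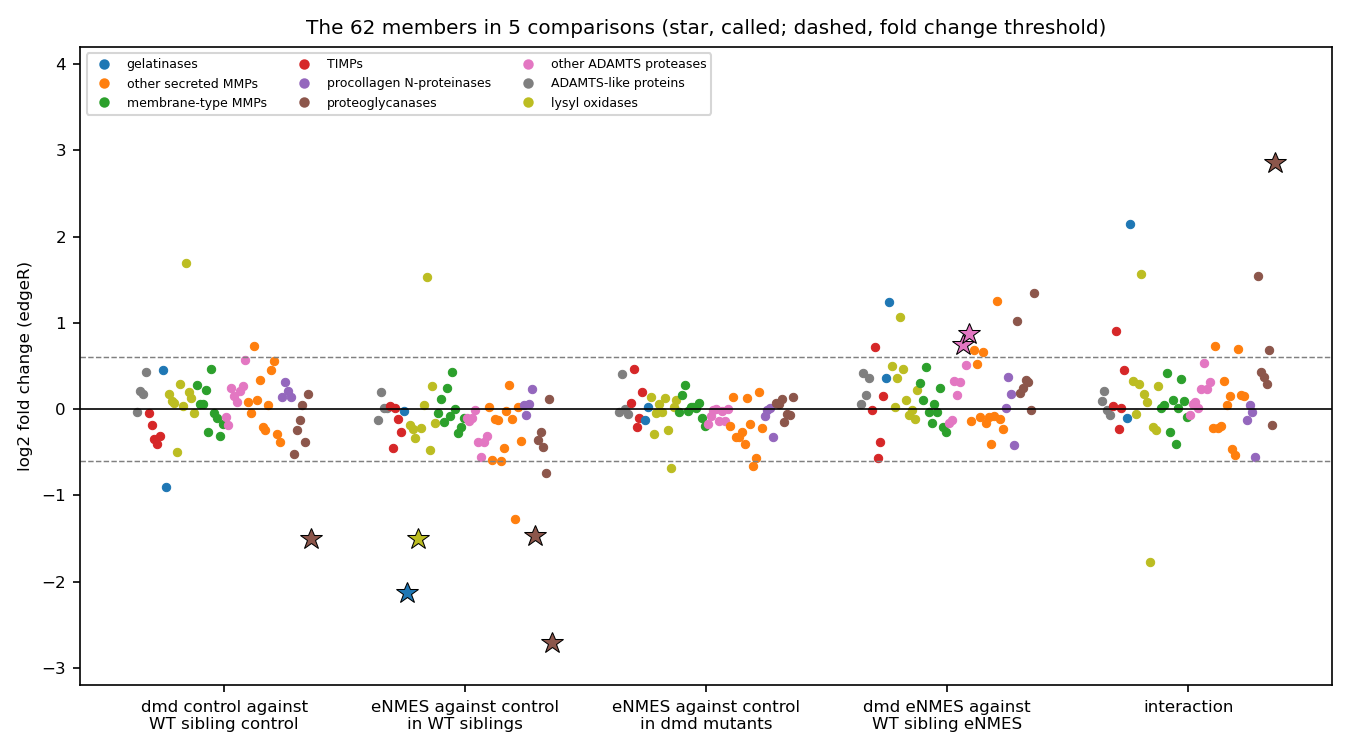
Log2 fold changes of the 62 members in the 5 comparisons, coloured by role; stars are called members, and dashed lines mark the minimum change of 0.6 in either direction. All 4 stars of eNMES in WT siblings are below 0, from -2.72 to -1.47, and there is no star for eNMES in *dmd* mutants.

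Genes that act on or with the members were read from 3 lists. Of 36 matrix substrates, 30 were positive in *dmd* mutant controls against WT sibling controls, 20 had an adjusted p under 0.1 and 2 were called, with a median log2 fold change of 0.26. *COL1A2*, a chain of type I collagen, rose by 0.75 (SE 0.0935, adjusted p = 1.2e-05 with edgeR) and *NID1*, a basement membrane protein, by 0.60 (SE 0.0745, adjusted p = 1.1e-05). Some of these genes, such as those of collagens, also stand in the fibroblast marker list. Between treated groups *COL1A2*, *DCN* and *TNC* were called higher in mutants, by 0.67, 0.60 and 0.77 on the log2 scale. No substrate was called by edgeR for eNMES in either genotype. At p under 0.05 there were 7 of 36 in WT siblings, 19.4% against 17.5% of all genes. In mutants there were 10 of 36, 27.8% against 10.3% of all genes.

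Of 36 activators and other matrix proteases, *CTSK* was the only one called between the controls. It encodes cathepsin K, the collagen-cutting protease of osteoclasts, and rose by 1.56 on the log2 scale in mutants (SE 0.444, adjusted p = 0.0402 with edgeR). Between treated groups *adam8a*, a membrane-bound metalloprotease gene, was higher in mutants by 0.89 on the log2 scale (SE 0.246, adjusted p = 0.0281 with edgeR). In WT siblings with eNMES no activator was called by edgeR, and 2 of 36 had p under 0.05, 5.56% against 17.5% of all genes. In the mutants with eNMES none was called either, and 8 of 36 had p under 0.05, 22.2% against 10.3% of all genes, 1 of them with an adjusted p under 0.1.

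Upstream signals were 24 genes, mostly of cytokines and of the AP-1 and NF-κB pathways. The list holds known activators of *MMP9* as well as inhibitors of such pathways, among them *nfkbiab*. Its genes were mostly negative in both comparisons with the WT sibling controls, which share these libraries. With eNMES in WT siblings 22 of 24 were negative, with a median log2 fold change of -0.86. Of the 24, 3 were called, against 2.95% of all genes. *FOSB* fell by 3.22, *FOSL1* by 2.08 and *nfkbiab* by 1.67 on the log2 scale, with adjusted p of 0.0292, 0.0686 and 0.0484. For eNMES in the mutants edgeR called 0 of the 24, and 3 had p under 0.05, 12.5% against 10.3% of all genes. *FOSB* had an interaction of 3.31 (SE 0.903, adjusted p = 0.0759). Between the controls 21 of 24 were negative, with a median of -0.48. At p under 0.05 there were 7, 29.2% against 21.8% of all genes, and *il11a* fell by 2.71 in mutants (SE 0.815, adjusted p = 0.0467). The part of these genes in the *MMP9* values was not tested.

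Members spread between libraries at least as much as other genes did, with the widest gap in the WT sibling controls. Their median SD on the log2 scale was 0.24 in untreated and 0.16 in treated WT siblings, and 0.24 in untreated and 0.28 in treated *dmd* mutants, against 0.18, 0.16, 0.23 and 0.24 over all genes. *MMP9* had a mean of 1457 ± 1276 normalized counts (SD, n = 8) in the mutant controls, where *MMP2* had 2060 ± 135.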

How the data were processed

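Whole zebrafish larvae were sequenced as polyA RNA, 2 larvae per library. The authors trimmed the reads with Trimmomatic, mapped them with Bowtie to the Ensembl transcriptome of GRCz11 and deposited, per gene, the estimated count and the TPM value that RSEM 1.2.31 gives, without a filter. RSEM shares reads between similar genes by estimation, so copies can exchange counts. The strand setting of the counting is not given in the sources used here. The submitters' processing notes also list FastQC 0.11.8, Trimmomatic 0.38.0, Bowtie 1.1.2 and DESeq2 1.22.2.

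Of 25 labelled libraries 24 were used, grouped by the genotype and treatment in their labels; nothing in the labels ties larvae to separate clutches, so p-values measure the spread between libraries. Expected counts were rounded. Genes with at least 10 counts over all libraries were fitted in 1 model of 4 groups with edgeR 4.0.16 (R 4.3.3, TMM, robust quasi-likelihood F test), with Benjamini-Hochberg adjustment over all genes. The biological coefficient of variation was 0.154. The study used DESeq2, which is an alternative here (1.42.0). Single members were tested with exact permutation tests on log2(normalized count + 1) in Python (3.11.15; numpy 2.4.6, pandas 2.3.3, scipy 1.17.1), and 5 relations between members with 100000 permutations. Of these, 3 were planned, but *MMP14* and *TIMP2* each name 2 genes. The edgeR procedure was tested on simulated data.

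Members, lists and tests were chosen with earlier results of these data known. Any member may be named. Values per library are given for members called in at least 1 comparison and for the 3 with the smallest p in each. The permutation tests were run for the same members, each in the comparison of groups that chose it. The highest and lowest member by TPM of each role are named too. *ADAMTS9*, *MMP24*, *adamts13*, *mmp13a* and the other members with values were named after their values were seen. Genes outside the members come from the lists when called. One result of the activator list is not reported here. Lists for cartilage and bone, osteoclasts, endothelium, exocrine pancreas and fast muscle were read as markers only. Alternatives were DESeq2, its size factors, other count filters, the replicate number as a block, a fit of only the groups compared, other thresholds, the clock set and each library left out. Positions and sequences were not used here, since no genome of the files' build was at hand.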

Additional observations from a re-analysis of the deposited data

Results flagged for a closer look

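*MMP9* in replicate 1 of the *dmd* mutant controls had 4510 normalized counts, against 621 to 1510 in the other 7 libraries, and stood far from the rest of its group. Such a gap was found in 1 of 39 groups of the 13 members tested for it, where chance gives about 1 in 20.

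The effect of eNMES on *ADAMTS1* differed between the genotypes by 2.85 on the log2 scale (interaction, adjusted p = 0.0527 with edgeR). It was -2.72 in WT siblings, where all 3 treated libraries were below all 4 controls, and the groups overlapped in *dmd* mutants. As given above, the call was lost without certain single WT sibling libraries and with the clock set as a term. In WT siblings eNMES and the clock set cannot be told apart.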

How the results depend on the processing

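Counts of called members moved with several settings, and no result changed direction. The share of all genes called under each alternative is not given here, so these counts do not show a shift particular to the members. Between the controls, where 1 member was called, there were 2 with only the groups compared (*mmp11b* added), 5 with no minimum fold change, 0 with only the *dmd* mutant controls of the positive set (*ADAMTS1* -1.77, adjusted p 0.201, with fewer libraries), and 0 to 2 with single libraries left out (0 without WT control replicate 3). For eNMES in WT siblings, with 4, there was 1 at an adjusted p of 0.05, 1 with the clock set as a term, and 0 to 5 with single libraries left out. For eNMES in *dmd* mutants, with 0, DESeq2 gave 1, and leaving out libraries gave 0 each time. Between treated groups, with 2, DESeq2 and filterByExpr gave 5 each, an adjusted p of 0.05 gave 1, no minimum fold change gave 9, and leaving out libraries gave 0 to 5 (0 without WT eNMES replicate 3, 4 without *dmd* control replicate 6 or *dmd* eNMES replicate 4, 6 or 7, 5 without *dmd* eNMES replicate 3). For the interaction, with 1, DESeq2 gave 4 (*MMP9*, *loxl2a* and *ADAMTS8* added), an adjusted p of 0.05 gave 0, the clock set as a term gave 0, and leaving out libraries gave 0 to 3 (3 without *dmd* control replicate 6). The replicate number as a block gave 3 calls between the controls, 5 for eNMES in WT siblings, 0 for eNMES in *dmd* mutants, 2 between treated groups and 4 for the interaction. The replicate numbers were not taken to pair the libraries, since the labels give no shared source and not every pair correlated. Deviations of same-numbered libraries correlated at -0.0828 to -0.0367 in WT siblings, at -0.14 to 0.244 in *dmd* mutants, at -0.0744 to 0.19 between the controls, and at 0.0231 to 0.0518 between treated groups. The causes of these shifts were not tested, apart from the thresholds. All medians of the members' log2 fold changes stayed within the spread between replicates. Depth was low in 1 library of the treated mutants, and members with few counts cannot show a difference.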

Other observations

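Fast muscle, cartilage and bone, and osteoclast markers were measured beside the matrix genes. The 12 fast muscle markers summed to 41340 to 46170 TPM in WT sibling controls and to 45200 to 51980 in *dmd* mutant controls, and 4 of the 12 were called higher in mutants. Both osteoclast markers were positive in the mutant controls, with 19.1 to 24.9 TPM in WT sibling controls and 33.0 to 101.7 in the mutant controls, and 1 of them, *CTSK*, was called. Cartilage and bone markers, 17 genes, summed to 446.2 to 495.4 TPM in WT sibling controls and 480.1 to 569.1 in mutant controls, with no call by edgeR, 7 of 16 tested with p under 0.05. Endothelial and exocrine pancreas markers held no call by edgeR between the controls, with 0 of 3 and 2 of 4 at p under 0.05. The macrophage and neutrophil markers held 6 calls of 16 tested, all higher in mutants, and summed to 173 to 204.4 TPM in WT sibling controls and 196.2 to 240.4 in *dmd* mutant controls. Of all genes, 3.12% were called between the controls and 21.8% had p under 0.05.

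Across the 17 *dmd* mutant libraries, centred on their group means, 5 relations between members were computed, and none had an adjusted permutation p under 0.1. *MMP9* and *mmp13a* gave Pearson's r = 0.471 (permutation p = 0.0507, adjusted 0.148) and Spearman's rho = 0.444 (permutation p = 0.0757, adjusted 0.189). Without the 2 libraries farthest from the median of *MMP9* r was 0.313, and within the clock sets it was 0.6 (n = 10) and 0.0977 (n = 7). *MMP2* and *TIMP2* (ENSDARG00000061226) gave r = 0.483 (permutation p = 0.0591, adjusted 0.148) and rho = 0.453 (permutation p = 0.0707, adjusted 0.189). Without the 2 libraries farthest from the median of *MMP2* r was 0.686, and within the sets it was 0.421 and 0.671. The other 3 relations, of *MMP2* with both *MMP14* copies and with the other *TIMP2* copy, had r from -0.204 to 0.272, with adjusted permutation p from 0.483 to 0.986 for r and from 0.477 to 0.759 for rho. For these 3, r without the same 2 libraries ran from -0.398 to 0.0397. Within the negative (n = 10) and positive (n = 7) set it was 0.182 and -0.816 for *MMP14* (ENSDARG00000008388). For the other *MMP14* copy it was 0.436 and -0.417, and for the *TIMP2* copy -0.124 and 0.105. No test was run within the sets.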
